A study of Mus musculus with 24 samples.

Results

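The interaction of brequinar with anti-PD-1 is the difference between 2 brequinar effects: the change that brequinar made on top of the anti-PD-1 antibody minus the change it made on top of the control antibody. It was computed over all 24 tumours of the series, and 16029 of the 55414 genes in the count table passed the filter on low counts. The tumours were grown from D4M, a mouse melanoma line, in C57BL/6 WT mice, and each of the 4 groups held 6 tumours. The IgG2a group received an IgG2a antibody, the PD-1 group an anti-PD-1 antibody, the BRQ+IgG2a group brequinar with the IgG2a antibody and the BRQ+PD-1 group brequinar with the anti-PD-1 antibody. All antibodies were given by intraperitoneal injection, and the tumour line, host strain and host genotype were shared by all groups. The labels number the tumours of a group 1 to 6 without naming a mouse, so the p-values measure the spread between these tumours.

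Brequinar blocks the product of Dhodh, a mitochondrial dehydrogenase without which cells cannot make pyrimidines from small precursors, and so limits the supply of UTP and CTP for RNA, DNA and CDP-choline. PD-1 is an inhibitory receptor of activated T cells, and antibodies against it release T cell responses in tumours. Activated T cells and NK cells secrete interferon gamma, which raises antigen presentation genes, guanylate-binding proteins and immunity-related GTPases in neighbouring cells.

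On the log2 scale the change of BRQ+PD-1 against IgG2a equals the brequinar change with IgG2a, plus the anti-PD-1 change without brequinar, plus the interaction. An interaction of 0 therefore means that the 2 single-treatment changes add up, and the level they would give together is called the additive expectation below. A gene was called sub-additive where the interaction had the opposite sign to the change of BRQ+PD-1 against IgG2a, and super-additive where it had the same sign. In a balanced design with the same spread in every group these 2 estimates carry independent error, so the class is then not fixed by a shared group. The interaction shares the IgG2a tumours with both single-treatment changes, with opposite sign, and a large single-treatment change and an interaction against it are therefore not independent of each other.

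No gene passed the test for the interaction (0% of 16029 genes at an adjusted p of 0.05, edgeR quasi-likelihood test with Benjamini-Hochberg adjustment, smallest adjusted p = 0.206). At an unadjusted p under 0.05 there were 1222 genes, 7.62% of those tested, of which 697 had a negative interaction (4.35%) and 525 a positive one (3.28%). DESeq2 called 11 genes, 8 with a positive interaction, among them Grb10 (adjusted p = 0.00373), and 3 with a negative one. The 3 were Runx3 (0.0172), Cyfip2 (0.0254) and Olfr56 (0.0304). By limma voom with sample quality weights 272 genes were called, 144 positive and 128 negative, so the count of calls rested on the tool. All values of the interaction given here are estimates with their SE that did not pass the edgeR test, and they rank and describe genes by size and spread.

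By size and spread, meaning a log2 interaction of at least 1 in either direction and an unadjusted p under 0.05, 254 genes were sub-additive (1.58% of the genes tested) and 194 were super-additive (1.21%). Of the 254 sub-additive genes, 217 had a negative interaction. In 121 of them the estimated combined change was smaller than that of either single treatment, in 129 it lay between them, and in 4 it was larger than either but smaller than their sum. Of the 194 super-additive genes, 14 had a combined change beyond the sum of the single changes in the same direction. In the other 180 the estimate of the combined change had the opposite sign to that sum. In 72 of these 180 genes, and in 59 of the 254 sub-additive ones, the combined change was smaller than its own SE, so that its sign, which sets the class, was not resolved. The combined change passed the test in 62 sub-additive genes, in 10 of the 14 and in 3 of the 180. The SE differed by level: the median SE of the interaction was 0.63 for genes under 1 CPM (counts scaled to a common library total), 0.37 from 1 to 10 CPM, 0.16 from 10 to 100 CPM and 0.15 above 100 CPM. Of the genes picked by size and spread, 174 lay under 1 CPM and 10 above 100 CPM. Single tumours moved these counts: there were 167 sub-additive genes without BRQ+IgG2a replicate 6 and 386 without IgG2a replicate 2, and 342 super-additive genes without BRQ+IgG2a replicate 5.

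Library totals ran from 19106205 to 34282319 counts, so that 1 CPM stood for 19.1 to 34.3 counts. In 4 tumours (IgG2a replicates 2 and 3, PD-1 replicate 6 and BRQ+IgG2a replicate 4) the skeletal muscle actin gene Acta1 stood at 4070.3 to 14990.5 CPM, against at most 425 CPM in the other 20. None of these muscle-rich tumours was in the BRQ+PD-1 group. Of 12 pigment-cell genes 3 passed the filter on low counts, while all 12 genes of the neural crest and undifferentiated melanoma list did. In bulk tumour RNA, fewer cells of a type and less RNA per cell cannot be told apart.

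Grb10, which encodes an adaptor that restrains insulin and growth factor receptor signalling, had the smallest p of all genes. Its level (lowest, median, highest) was 81.6, 97.2 and 139 CPM with IgG2a. With PD-1 it was 50.2, 54.6 and 77.3 CPM. With BRQ+IgG2a it was 38.5, 66.2 and 78.1 CPM. Both single-treatment groups lay wholly below the IgG2a group. The BRQ+PD-1 tumours stood at 74.7, 85.5 and 92.2 CPM, overlapping the IgG2a range, and all 6 were above the additive expectation of 37.0 CPM. The brequinar change was -0.71 ± 0.16 (log2, SE) with IgG2a, which passed the test (adjusted p = 0.0117), and 0.48 ± 0.16 with anti-PD-1, which did not (adjusted p = 0.0771). The interaction was 1.19 ± 0.22 (unadjusted p = 1.94e-05, adjusted p = 0.206).

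Tlr12, Cd300a and Runx3 form a second pattern, in which the treated groups overlapped one another and had medians above that of IgG2a. Tlr12 encodes a Toll-like receptor that senses profilin of protozoa. It stood at 3.18, 5.06 and 8.05 CPM with IgG2a, 10.2, 17.5 and 25.1 CPM with PD-1, 6.09, 18.3 and 24.1 CPM with BRQ+IgG2a and 12.8, 15.5 and 25 CPM with BRQ+PD-1. The IgG2a group lay wholly below the PD-1 and BRQ+PD-1 groups and overlapped the BRQ+IgG2a group, and the additive expectation was 53.6 CPM. The interaction of Tlr12 was -1.61 ± 0.42.

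Cd300a encodes an inhibitory receptor of myeloid and lymphoid cells. It stood at 6.07, 7.24 and 8.19 CPM with IgG2a, 11.0, 13.3 and 16.9 CPM with PD-1, 10.5, 14.5 and 17.8 CPM with BRQ+IgG2a and 11.4, 14.6 and 19.7 CPM with BRQ+PD-1. Every treated group lay wholly above the IgG2a group, and the treated groups overlapped one another. The interaction was -0.91 ± 0.23 and the additive expectation 28.1 CPM.

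Runx3, a transcription factor of cytotoxic lymphocytes, stood at 15.4, 17.6 and 19.8 CPM with IgG2a, 23, 26.9 and 30.3 CPM with PD-1, 22.5, 25.8 and 34.3 CPM with BRQ+IgG2a and 21.7, 25.1 and 32.4 CPM with BRQ+PD-1. Its interaction of -0.71 ± 0.15 (unadjusted p = 9.44e-05) is small in size and narrow in spread, and falls short of the size threshold of 1. Brequinar raised Runx3 by 0.63 ± 0.11 with IgG2a (adjusted p = 0.00137), and the change with anti-PD-1 was -0.07 ± 0.11. These 3 genes were the only genes called in PD-1 against IgG2a (0.0187% of the genes tested, adjusted p = 0.0402 for each). They were taken into this account because of that call, which used the same IgG2a tumours as the interaction.

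**Figure D1:**
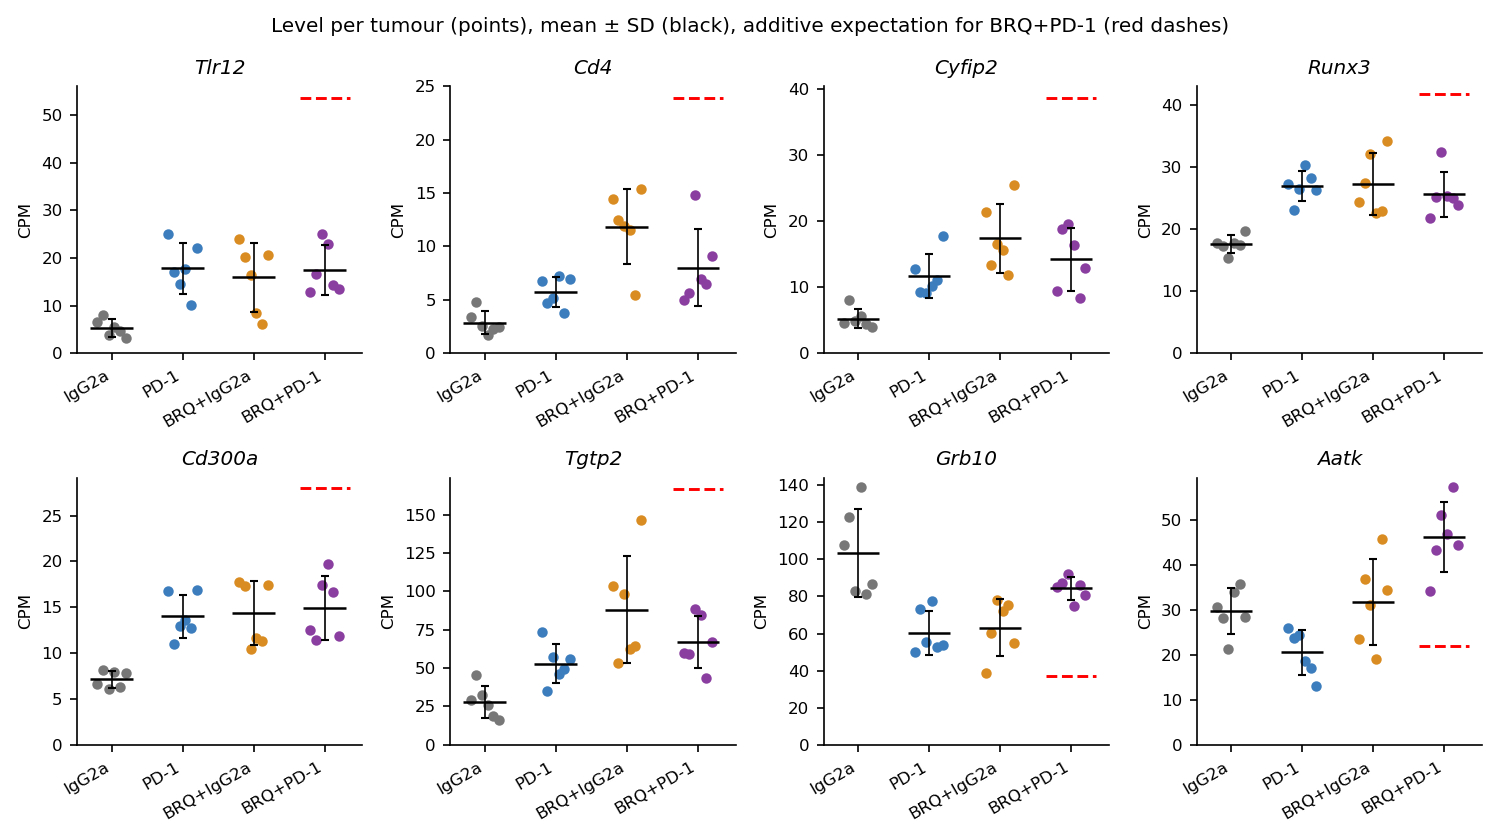
Level in CPM of 8 genes (y axis) in each of the 24 tumours (points) by group (x axis), with the group mean and SD in black and the additive expectation for BRQ+PD-1 as red dashes. All 6 BRQ+PD-1 tumours lie under the expectation for Tlr12, Cd4, Cyfip2, Runx3, Cd300a and Tgtp2, and all 6 lie above it for Grb10 and Aatk. The genes were chosen by p-values from these same tumours, so these counts are no separate support.

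The other sub-additive genes chosen by p included a T cell coreceptor and an actin regulator. Cd4, which marks helper T cells, stood at 1.74, 2.5 and 4.77 CPM with IgG2a, 3.74, 5.95 and 7.20 CPM with PD-1, 5.43, 12.2 and 15.4 CPM with BRQ+IgG2a and 5.02, 6.73 and 14.9 CPM with BRQ+PD-1. Brequinar raised Cd4 by 2.05 ± 0.29 with IgG2a (adjusted p = 0.000398), and its change with anti-PD-1 was 0.48 ± 0.28 (adjusted p = 0.32). The interaction was -1.57 ± 0.39. Both brequinar groups lay wholly above the IgG2a group.

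Cyfip2, whose product belongs to the WAVE complex that drives actin branching, stood at 4.0, 4.72 and 8.02 CPM with IgG2a, 9.18, 10.6 and 17.8 CPM with PD-1, 11.8, 16.1 and 25.5 CPM with BRQ+IgG2a and 8.42, 14.6 and 19.5 CPM with BRQ+PD-1. Its interaction was -1.44 ± 0.33, and all 3 treated groups lay wholly above IgG2a. Adgrg5, an adhesion G protein-coupled receptor, had an interaction of -1.78 ± 0.45, and Cd300ld3, a CD300 family receptor, one of -1.48 ± 0.35. The olfactory receptor gene Olfr56 had an interaction of -1.73 ± 0.41, but its annotated span covers the interferon-induced GTPase genes Ifi47 on the same strand and Tgtp2 on the opposite strand. Reads of Olfr56 and of these genes cannot be told apart here, because the strand setting of the counts is not given in the sources used here.

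Besides Grb10, 1 of the 8 sub-additive genes chosen by p had a positive interaction. Adamtsl2, which encodes a secreted matrix protein that binds fibrillin, stood at 2.15, 3.62 and 4.75 CPM with IgG2a, 0.573, 0.837 and 2.77 CPM with PD-1, 0.686, 1.97 and 3.85 CPM with BRQ+IgG2a and 1.4, 3.0 and 4.77 CPM with BRQ+PD-1. All groups overlapped, and the interaction was 2.10 ± 0.55. Without the 4 muscle-rich tumours it was 3.08 with an adjusted p of 0.0256 by edgeR, the single gene called in that setting.

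In the 8 super-additive genes chosen by p the combined change had the opposite sign to the sum of the single changes, and it passed the test in 1 of them. Aatk, which encodes a membrane-bound kinase of the LMTK family, stood at 21.3, 29.5 and 35.7 CPM with IgG2a, 13.1, 21.2 and 26.0 CPM with PD-1, 19, 32.8 and 45.7 CPM with BRQ+IgG2a and 34.3, 45.7 and 57.2 CPM with BRQ+PD-1. The BRQ+PD-1 group lay wholly above the PD-1 group and overlapped the others. Brequinar raised Aatk by 1.17 ± 0.19 with anti-PD-1 (adjusted p = 0.00153), whereas the change with IgG2a was 0.10 ± 0.19 (adjusted p = 0.874), and the interaction was 1.07 ± 0.27.

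Slc2a13, the proton-coupled myo-inositol transporter, is the gene among these 8 whose combined change passed the test against IgG2a. It stood at 3.24, 4.30 and 4.66 CPM with IgG2a, 2.66, 3.22 and 5.16 CPM with PD-1, 3.22, 4.37 and 7.45 CPM with BRQ+IgG2a and 6.46, 8.62 and 12.5 CPM with BRQ+PD-1. The BRQ+PD-1 group lay wholly above both antibody-only groups. The change of BRQ+PD-1 against IgG2a was 1.04 ± 0.21 (adjusted p = 0.00838), the sum of the single changes was -0.02, and the interaction was 1.06 ± 0.30.

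Cgnl1, a component of epithelial and endothelial junctions, had an interaction of 1.12 ± 0.28, and Cd46, a regulator of complement, one of 1.18 ± 0.32. Both were called higher for brequinar with anti-PD-1 (0.77 ± 0.20, adjusted p = 0.0272, and 1.03 ± 0.23, adjusted p = 0.0119) and not for brequinar with IgG2a. In the other direction, Kcnk5, a potassium channel gene, fell by 1.37 with brequinar on top of anti-PD-1 (adjusted p = 0.00252) and had an interaction of -1.14 ± 0.33. Greb1l, with an interaction of -1.47 ± 0.40, and Fst, which encodes the activin antagonist follistatin, with -1.19 ± 0.36, were called in neither brequinar comparison. Their combined changes of -0.09 ± 0.28 (adjusted p = 0.885) and -0.14 ± 0.25 (adjusted p = 0.773) were smaller than the SE, while the single changes summed to 1.39 and 1.05. BRQ+PD-1 therefore differed from IgG2a by less than the error in Greb1l and Fst, and the sign that puts them in the super-additive class was not resolved.

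The largest negative interactions went with 1 or a few high tumours in the other groups. Myh2, a fast muscle myosin, had an interaction of -7.76 ± 3.59, which was -0.63 without BRQ+IgG2a replicate 4 and -12.3 without IgG2a replicate 3. It reached 421, 309 and 611 CPM in the highest tumour of the IgG2a, PD-1 and BRQ+IgG2a groups and at most 0.773 CPM with BRQ+PD-1, the group without a muscle-rich tumour. All 20 measured members of the muscle list had a negative interaction, with a median of -1.73, but this median was 1.65 without PD-1 replicate 6 and -3.44 without BRQ+PD-1 replicate 2. The muscle score of BRQ+PD-1 differed from its additive expectation by 0.02, with 3 tumours under it and 3 above. Cxcl13, the chemokine that attracts B cells, had an interaction of -5.19 ± 1.56 and stood at 12.6 CPM in PD-1 replicate 6, against at most 0.431 CPM in the other PD-1 tumours. Without that tumour the value was -2.20, and the combined change of Cxcl13 was -0.42 ± 1.15 (adjusted p = 0.863). Sfrp2, a secreted Wnt antagonist, had an interaction of -5.27 ± 1.79, with 88.5 CPM in the highest PD-1 tumour and a PD-1 median of 4.56 CPM, and gave -3.20 without PD-1 replicate 6. Of the largest positive values, Dmp1, a matrix protein of bone and dentine, stood at 2.64, 9.90 and 46.9 CPM with IgG2a and 18.9, 98.6 and 183 CPM with BRQ+PD-1, with an interaction of 2.21 ± 1.36 (1.43 without IgG2a replicate 6 and 3.50 without BRQ+IgG2a replicate 5). Gal, which encodes the neuropeptide galanin, had an interaction of 2.40 ± 0.83.

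The 34 gene lists put the sub-additive side in lymphocyte and interferon genes. Over all genes tested the median interaction was -0.00, and 50.5% were negative and 49.5% positive, so these are the values against which a list is read. All 24 T cell genes had a negative interaction (median -1.25, 10 at an unadjusted p under 0.05). The median brequinar change of these genes was 1.80 with IgG2a and 0.56 with anti-PD-1. Brequinar raised 16 of the 24 with IgG2a (2.96% of all genes tested were called higher in that comparison) and 0 of the 24 with anti-PD-1 (2.38% of all genes called higher). For so few genes, 0 is near that last share.

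In single T cell genes the spread between tumours was wide. Cd8a, a chain of the coreceptor on killer T cells, stood at 1.42, 3.47 and 10.4 CPM with IgG2a, 3.89, 6.97 and 14.2 CPM with PD-1, 4.21, 17.3 and 39.8 CPM with BRQ+IgG2a and 3.72, 11.9 and 20.5 CPM with BRQ+PD-1. All 4 groups overlapped, and the interaction of -1.51 ± 0.68 had a 95% interval from -2.92 to -0.10. For Cd8b1, its partner chain, the interaction was -1.97 ± 0.67.

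Cytotoxic lymphocyte genes followed the same course: 21 of 23 had a negative interaction, with a median of -1.23 and 9 at an unadjusted p under 0.05. Prf1, the pore-forming protein of killer cells, stood at 1.42, 2.22 and 6.22 CPM with IgG2a, 3.62, 4.58 and 7.36 CPM with PD-1, 8.02, 12.7 and 32.7 CPM with BRQ+IgG2a and 6.26, 9.25 and 14.5 CPM with BRQ+PD-1. Both brequinar groups lay wholly above IgG2a, and the interaction was -1.54 ± 0.50. Eomes, a transcription factor of cytotoxic cells, had an interaction of -1.73 ± 0.52. Ifng, which encodes interferon gamma itself, was measured at low levels, with medians of 0.274, 0.697, 1.33 and 0.934 CPM in the order IgG2a, PD-1, BRQ+IgG2a and BRQ+PD-1, and its interaction of -0.97 ± 0.92 had a 95% interval from -2.87 to 0.93. It was -2.17 without IgG2a replicate 2 and -0.63 without BRQ+IgG2a replicate 6.

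Checkpoint and exhaustion genes had a median interaction of -0.48, with 15 of 18 negative. Pdcd1, which encodes PD-1 itself, stood at 0.814, 1.56 and 3.39 CPM with IgG2a, 2.13, 3.60 and 7.85 CPM with PD-1, 2.79, 7.67 and 15.2 CPM with BRQ+IgG2a and 3.64, 4.60 and 8.93 CPM with BRQ+PD-1. Its interaction was -1.71 ± 0.58. Cd274, which encodes the ligand PD-L1, had an interaction of -0.83 ± 0.38. It was called higher in BRQ+PD-1 against IgG2a (1.41 ± 0.27, adjusted p = 0.0059, where 2.48% of all genes were called higher), and its additive expectation of 91.0 CPM lay above all 6 BRQ+PD-1 tumours, the highest of which stood at 74.4 CPM. Pdcd1lg2, which encodes the other PD-1 ligand, had an interaction of -1.09 ± 0.45. Of 12 regulatory T cell genes 11 were negative (median -1.05), including Il2ra and Il2rb, chains of the interleukin-2 receptor, at -1.28 ± 0.51 and -1.34 ± 0.58.

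**Figure D2:**
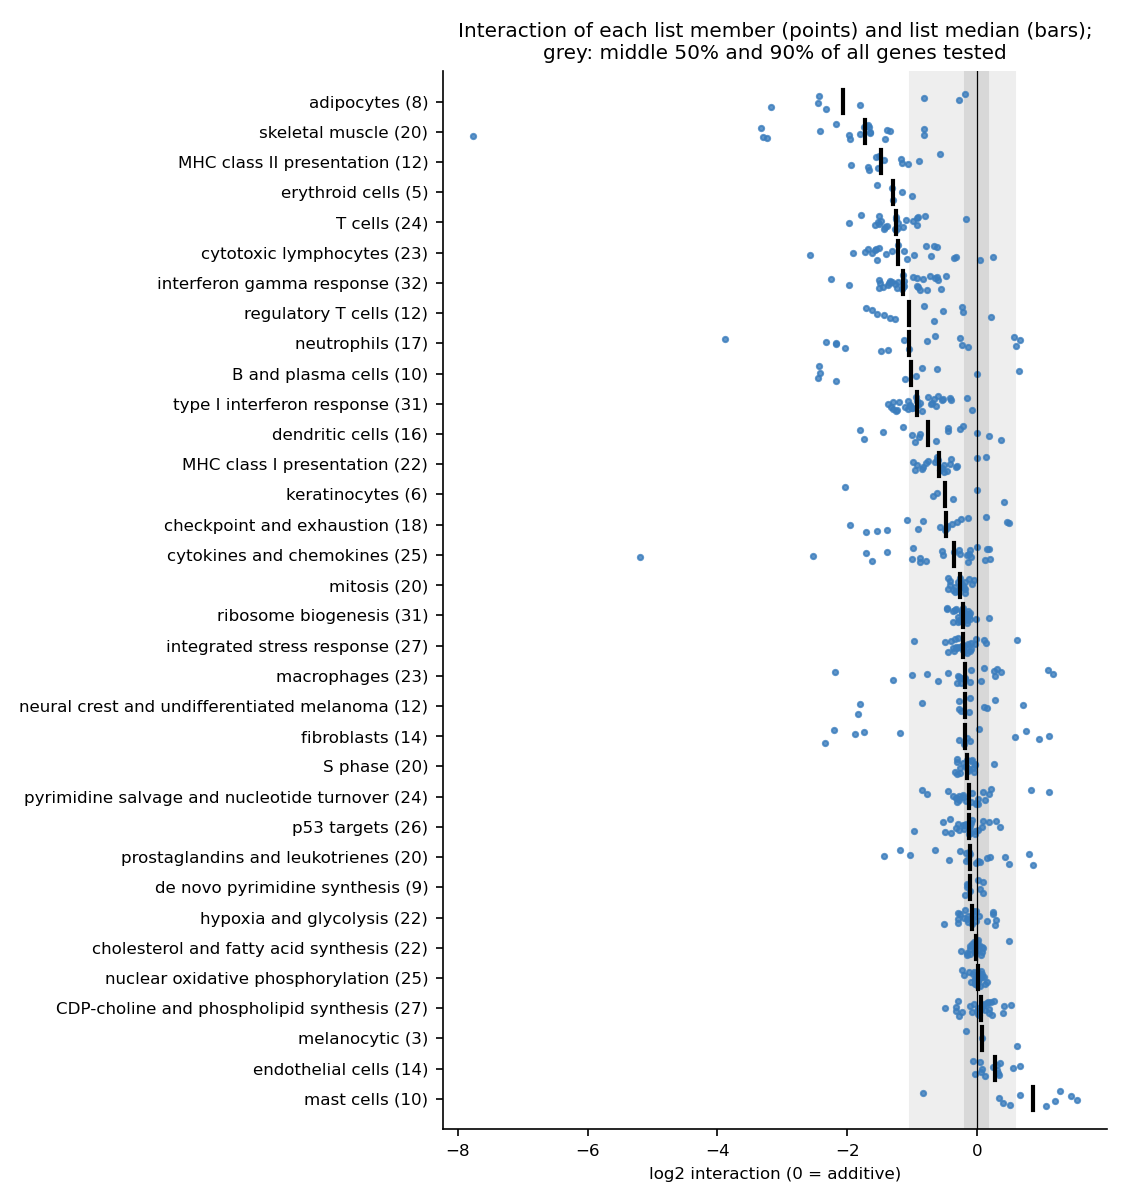
Log2 interaction (x axis, 0 is additive) of every measured member (points) of the 34 gene lists (y axis, number of members in brackets), with the list median as a bar and the middle 50% and 90% of all genes tested in grey. All members of the T cell, interferon and MHC class II lists and 21 of 22 of the MHC class I list lie left of 0. Of the mast cell list 9 of 10 lie right of it, with a median of 0.85. The medians of the pyrimidine and CDP-choline lists lie within the grey band around 0.

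Interferon response genes shared 1 direction. All 32 genes of the interferon gamma response list had a negative interaction, with a median of -1.14 and a range from -2.25 to -0.48, and 25 of them were at an unadjusted p under 0.05 (4.35% of all genes tested were so and negative). Their median brequinar change was 1.36 with IgG2a and 0.32 with anti-PD-1. Brequinar raised 21 of the 32 with IgG2a (2.96% of all genes tested were called higher) and 0 with anti-PD-1 (2.38% of all genes). The type I interferon list gave 31 of 31 negative, a median of -0.94 and 25 at an unadjusted p under 0.05, with 22 raised by brequinar with IgG2a and 0 with anti-PD-1. In lists this short a count of 0 is near the share over all genes. Passing in 1 comparison and not in the other is no test of the difference. The members of both lists vary together across tumours, so their number does not count as that many observations.

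Interferon gamma signalling reaches its target genes through GAS elements, and type I interferon signalling through interferon-stimulated response elements, which a complex holding STAT2 and IRF9 binds. Promoter windows of 300 bases around the gene start, from RefSeq on the build GRCm38.p6 (the counts were made on GRCm39), were found for 42 of the 63 measured genes of these 2 lists. The GAS motif was searched as TTCNNNGAA and the interferon-stimulated response element by its usual core, the core shown in capitals for Stat2 with its middle pair of bases free, on both strands. The GAS letters occurred in 15 of the 42 genes (35.7%, against 9.55% of all genes in the table) and those of the response element in 22 (52.4%, against 3.99%). A match says only that these letters occur in the window. The promoters of Tgtp2 and Stat2 are shown because these genes led the 2 lists by p. Motif matches are in capitals, in Tgtp2 a GAS match followed by a response element match on the reverse strand, in Stat2 a response element match. The Tgtp2 window is chr11:49064163-49064462 on the minus strand and the Stat2 window is chr10:128270248-128270547 on the plus strand.
Tgtp2: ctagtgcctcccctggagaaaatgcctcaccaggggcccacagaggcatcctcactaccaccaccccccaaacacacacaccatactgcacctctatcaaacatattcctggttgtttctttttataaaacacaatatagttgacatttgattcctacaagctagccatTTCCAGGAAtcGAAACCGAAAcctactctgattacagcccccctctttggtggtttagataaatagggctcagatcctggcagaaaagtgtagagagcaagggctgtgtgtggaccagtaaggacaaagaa
Stat2: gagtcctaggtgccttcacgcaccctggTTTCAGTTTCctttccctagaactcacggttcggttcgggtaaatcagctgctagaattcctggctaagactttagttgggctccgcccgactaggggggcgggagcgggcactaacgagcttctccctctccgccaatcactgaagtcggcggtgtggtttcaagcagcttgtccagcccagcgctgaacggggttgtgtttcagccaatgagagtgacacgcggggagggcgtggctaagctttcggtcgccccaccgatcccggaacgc

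Tgtp2, an immunity-related GTPase gene with a near-identical neighbour, Tgtp1, so that its own level is uncertain, stood at 16.2, 27.5 and 45.6 CPM with IgG2a, 35.1, 52.7 and 73.6 CPM with PD-1, 53.5, 81.2 and 146 CPM with BRQ+IgG2a and 43.3, 63.5 and 88.6 CPM with BRQ+PD-1. The additive expectation was 167 CPM, above every tumour of the study for this gene, and the interaction was -1.31 ± 0.36. Gbp6, a guanylate-binding protein gene of a family with similar copies, stood at 4.77, 8.10 and 14.5 CPM with IgG2a and 12.5, 21.7 and 27.6 CPM with BRQ+PD-1, under its expectation of 59.2 CPM, with an interaction of -1.45 ± 0.42. Both genes were called higher in BRQ+PD-1 against IgG2a, by 1.26 ± 0.26 (adjusted p = 0.00838) and 1.37 ± 0.30 (adjusted p = 0.0139).

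Stat2 stood at 39.1, 44.4 and 63.3 CPM with IgG2a, 45.9, 61.2 and 89.4 CPM with PD-1, 62.0, 93.1 and 138 CPM with BRQ+IgG2a and 56.2, 68.9 and 80.5 CPM with BRQ+PD-1. The BRQ+PD-1 median lay between those of IgG2a and BRQ+IgG2a, near that of PD-1, and the interaction was -0.89 ± 0.24. Irf9, its partner in the complex, had an interaction of -0.72 ± 0.21, and overlaps Rnf31 on the same strand in the annotation.

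Antigen presentation genes shared this direction. Of 12 MHC class II genes all 12 were negative, with a median of -1.48 and 8 at an unadjusted p under 0.05. Cd74, the invariant chain that guides class II molecules, stood at 285, 407 and 1040.4 CPM with IgG2a, 813, 1226 and 1648 CPM with PD-1, 470.3, 2005 and 3942 CPM with BRQ+IgG2a and 986, 1542 and 2691 CPM with BRQ+PD-1. The additive expectation lay at 5296 CPM, and no tumour reached it. The interaction was -1.56 ± 0.55, and for H2-Aa and H2-Ab1, the 2 chains of one class II molecule, it was -1.66 ± 0.61 and -1.53 ± 0.63.

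For the class I pathway 21 of 22 genes were negative, with a smaller median of -0.59. Nlrc5, the transactivator of class I genes, had an interaction of -0.62 ± 0.21 and was called higher both for brequinar with IgG2a (0.88 ± 0.15, adjusted p = 0.0013) and in BRQ+PD-1 against IgG2a (0.76 ± 0.15, adjusted p = 0.00569). Tap1, a subunit of the peptide transporter, had -0.92 ± 0.32 and overlaps Psmb9 on the opposite strand. H2-K1, a classical class I heavy chain with similar copies, had -0.51 ± 0.24.

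Mean log2 CPM over a list gives 1 score per tumour. For the interferon gamma list the score was 4.40 ± 0.54 (SD, n = 6) with IgG2a, 5.20 ± 0.45 with PD-1, 5.73 ± 0.55 with BRQ+IgG2a and 5.44 ± 0.36 with BRQ+PD-1. The additive expectation was 6.53, and the highest BRQ+PD-1 tumour reached 5.86. The T cell score was 0.65 ± 0.71, 1.39 ± 0.54, 2.32 ± 0.84 and 1.81 ± 0.64 in the same order of groups, with an expectation of 3.06 and 2.63 in the highest BRQ+PD-1 tumour. In both lists BRQ+PD-1 stood between PD-1 and BRQ+IgG2a, and the expectation carries the error of 3 group means. IgG2a replicate 2, a muscle-rich tumour, had the highest T cell, interferon and class II scores of its group. BRQ+IgG2a replicate 6 had the highest of its group in all of these, and BRQ+IgG2a replicate 5 the lowest T cell, interferon gamma and class II scores.

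**Figure D3:**
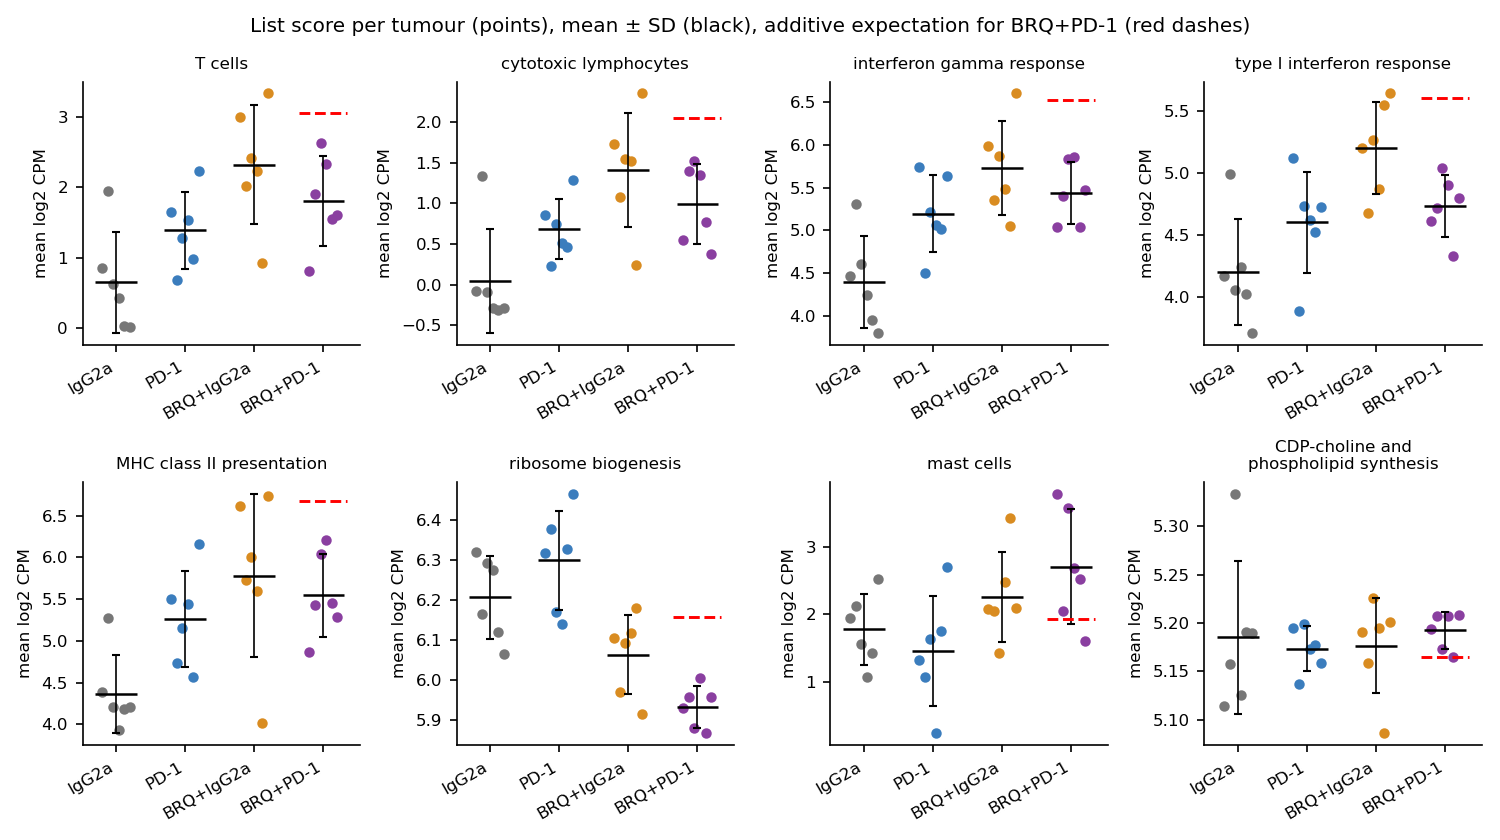
Mean log2 CPM over a list (y axis) in each tumour (points) by group (x axis), with the group mean and SD in black and the additive expectation for BRQ+PD-1 as red dashes. All 6 BRQ+PD-1 tumours lie under the expectation for the T cell, cytotoxic, interferon, class II and ribosome biogenesis lists, and 5 of 6 lie above it for mast cells. For CDP-choline, whose axis spans a narrow range, all 6 lie above it, with a mean difference of only 0.03.

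Leaving out single tumours moved how many members had a small p, while the T cell and interferon gamma medians stayed negative in all 24 such fits. Without BRQ+IgG2a replicate 6 the count of T cell genes at an unadjusted p under 0.05 was 3 of 24 and that of the interferon gamma list was 18 of 32, with medians of -1.0 and -0.94. Without IgG2a replicate 2 these counts were 20 and 31, with medians of -1.65 and -1.41. Without the 4 muscle-rich libraries they were 16 and 30, with medians of -1.54 and -1.50. These libraries include IgG2a replicate 2, so that setting does not separate muscle content from the loss of that tumour.

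Brequinar changed 554 genes with IgG2a (3.46% of the genes tested) and 808 with anti-PD-1 (5.04%), and the pair of treatments changed 627 against IgG2a (3.91%). Between BRQ+PD-1 and BRQ+IgG2a 0 genes were called (0%), so no difference between these 2 groups passed the test. In the fit as reported, the genes that brequinar raised did not as a whole have a negative interaction. For the mean of the 2 brequinar changes 1108 genes were called higher (6.91% of the genes tested), and 610 of them (55.1%) had a negative interaction. In the 8 lists of T cells, cytotoxic lymphocytes, checkpoints, regulatory T cells, both interferon responses and MHC class I and II, 100 genes were called higher, and all 100 had a negative interaction with a median of -1.14. Outside these lists 510 of 1008 (50.6%) did, a share that depended on the setting. It was 69.3% (650 of 938) without the 4 muscle-rich libraries, 59.4% by limma voom, and 44.2% to 63.0% over the fits that left out 1 library. Of all 167 genes measured in the 8 lists, 160 had a negative interaction, with a median of -1.01. The error of the mean brequinar change is independent of the interaction only if all groups have the same spread. The class II score had an SD of 0.98 with BRQ+IgG2a and 0.47 to 0.58 in the other groups. In these lists no gene was called higher for brequinar with anti-PD-1. The 100 calls therefore leaned on the BRQ+IgG2a tumours, whose level enters the interaction with a negative sign. Their shared direction is no independent check.

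Several of the largest brequinar changes outside these lists passed the test with both antibodies, and their interactions had wide errors. Scara5, a scavenger receptor that takes up ferritin, stood at 1.15, 2.76 and 9.98 CPM with IgG2a, 2.08, 2.80 and 8.95 CPM with PD-1, 32.5, 44.5 and 92.3 CPM with BRQ+IgG2a and 10.4, 35.2 and 62.9 CPM with BRQ+PD-1. Brequinar raised it by 3.89 ± 0.53 with IgG2a (adjusted p = 0.000414) and by 3.14 ± 0.52 with anti-PD-1 (adjusted p = 0.00228), and each brequinar group lay wholly above its antibody control. The interaction of -0.75 ± 0.68 had a 95% interval from -2.17 to 0.67, and 5 of 6 BRQ+PD-1 tumours lay under the additive expectation of 58.0 CPM. It was -0.32 without PD-1 replicate 6 and -1.35 without IgG2a replicate 1.

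Scml4, a Polycomb-group-like gene, was raised by 2.33 ± 0.40 with IgG2a (adjusted p = 0.00171) and by 2.81 ± 0.41 with anti-PD-1 (adjusted p = 0.000729), with an interaction of 0.48 ± 0.55 (0.20 without IgG2a replicate 4 and 1.09 without BRQ+IgG2a replicate 5). H2-M2, a nonclassical class I gene, was raised by 4.01 ± 0.84 (adjusted p = 0.00825) and by 3.12 ± 0.79 (adjusted p = 0.0255). All but 1 of the BRQ+PD-1 tumours lay under its additive expectation of 18.8 CPM, and its interaction was -0.11 without BRQ+IgG2a replicate 6 and -1.45 without BRQ+PD-1 replicate 3. The interaction of -0.88 ± 1.06 turned positive on the linear scale, where the difference of differences of the group means was 1.5 CPM.

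**Figure D4:**
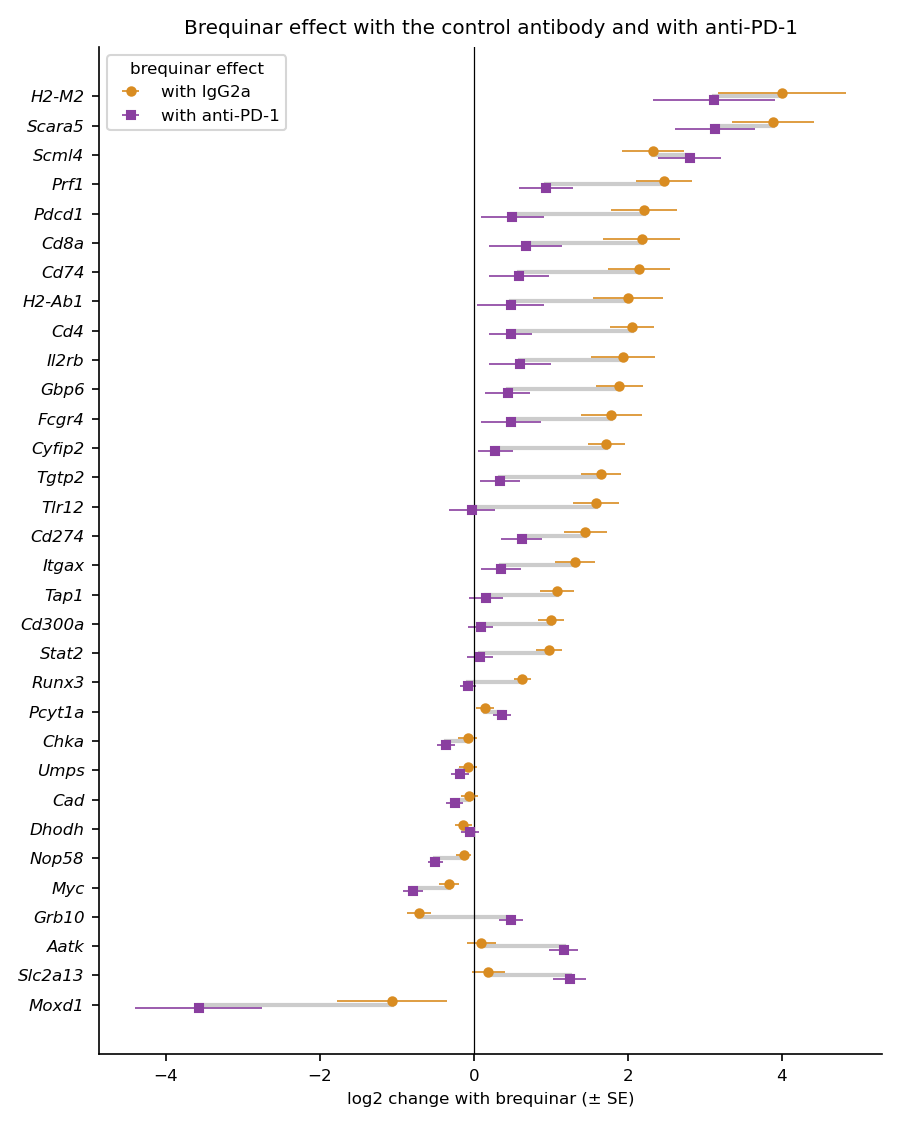
Log2 change with brequinar (x axis, ± SE) with the IgG2a antibody (circles) and with the anti-PD-1 antibody (squares) for 32 named genes (y axis), joined by a grey bar whose length is the interaction. The pairs of Scara5, Scml4 and H2-M2 both lie far right of 0, the immune genes from Prf1 to Runx3 have the circle to the right of the square, and Moxd1 has the square at -3.58 and the circle at -1.06.

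Genes that fell with brequinar leaned to the other side. For the mean brequinar change 893 genes were called lower (5.57% of the genes tested), and 697 of them (78.1%) had a negative interaction, so the combination lay lower than the sum of the single changes. In BRQ+PD-1 against IgG2a 229 genes were called lower (1.43% of the genes tested), and 199 of them were super-additive. Over all 16029 genes tested, 9328 were super-additive. These interactions were small, with a median of -0.19 over the 229. The share among genes called lower for the mean change was 61.3% when BRQ+IgG2a replicate 5 was left out and 65.1% when replicate 4 of that group was. Without the 4 muscle-rich libraries it was 70.8%, near the 69.3% of the raised genes outside the 8 lists in that setting.

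Ribosome biogenesis, which consumes much of the nucleotide supply of a growing cell, was one such group. Of 31 genes 30 had a negative interaction, with a median of -0.23 and 9 at an unadjusted p under 0.05. Brequinar lowered 1 of the 31 with IgG2a (0.493% of all genes were called lower) and 15 of the 31 with anti-PD-1 (2.66% of all genes). The median change was -0.13 with IgG2a and -0.34 with anti-PD-1. The list score was 6.21 ± 0.10 (SD, n = 6) with IgG2a, 6.30 ± 0.12 with PD-1, 6.06 ± 0.10 with BRQ+IgG2a and 5.93 ± 0.05 with BRQ+PD-1. That a gene passed in 1 comparison and not in the other is no test of the difference, and no member was called for the interaction. Without the 4 muscle-rich libraries 2 members, in place of 9, were at an unadjusted p under 0.05, and the median was -0.17.

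Myc, the transcription factor that drives ribosome production, stood at 59.5, 73.4 and 102 CPM with IgG2a, 72.7, 87.0 and 96.9 CPM with PD-1, 48.4, 61.0 and 76.1 CPM with BRQ+IgG2a and 39.0, 51.1 and 59.5 CPM with BRQ+PD-1. The BRQ+PD-1 group lay wholly below the PD-1 group, while BRQ+IgG2a overlapped IgG2a. Brequinar lowered Myc with anti-PD-1 (-0.79 ± 0.13, adjusted p = 0.00134), the change with IgG2a was -0.32 ± 0.12 (adjusted p = 0.189), and the interaction was -0.47 ± 0.18. Nop58, a core protein of box C/D small nucleolar particles, had brequinar changes of -0.13 ± 0.10 and -0.50 ± 0.10 (adjusted p = 0.00562 for the second) and an interaction of -0.37 ± 0.14.

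Targets of the integrated stress response, the program run by the factor ATF4, gave 24 of 27 negative interactions with a median of -0.22, which was -0.06 without BRQ+IgG2a replicate 5 and -0.40 without IgG2a replicate 4. Brequinar lowered 3 of them with IgG2a and 8 with anti-PD-1, where 0.493% and 2.66% of all genes tested were called lower. Targets of p53 gave 20 of 26 negative with a median of -0.13, with 1 and 6 lowered in the same 2 comparisons. Mitosis genes were negative in 20 of 20 (median -0.26) and S phase genes in 19 of 20 (median -0.16), with none at an unadjusted p under 0.05 in either list. Without BRQ+IgG2a replicate 5 these medians were -0.41 and -0.24, and the S phase median was -0.08 without BRQ+IgG2a replicate 1. Moxd1, which encodes a monooxygenase related to dopamine beta-hydroxylase, was called lower for brequinar with anti-PD-1 (adjusted p = 0.0158) and not with IgG2a (adjusted p = 0.539). It stood at 0.925, 1.68 and 3.84 CPM with IgG2a, 0.325, 1.90 and 4.85 CPM with PD-1, 0, 0.922 and 2.12 CPM with BRQ+IgG2a and 0, 0.212 and 0.398 CPM with BRQ+PD-1. Its interaction was -2.51 ± 1.07, and the BRQ+PD-1 group lay wholly below the IgG2a group.

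**Figure D5:**
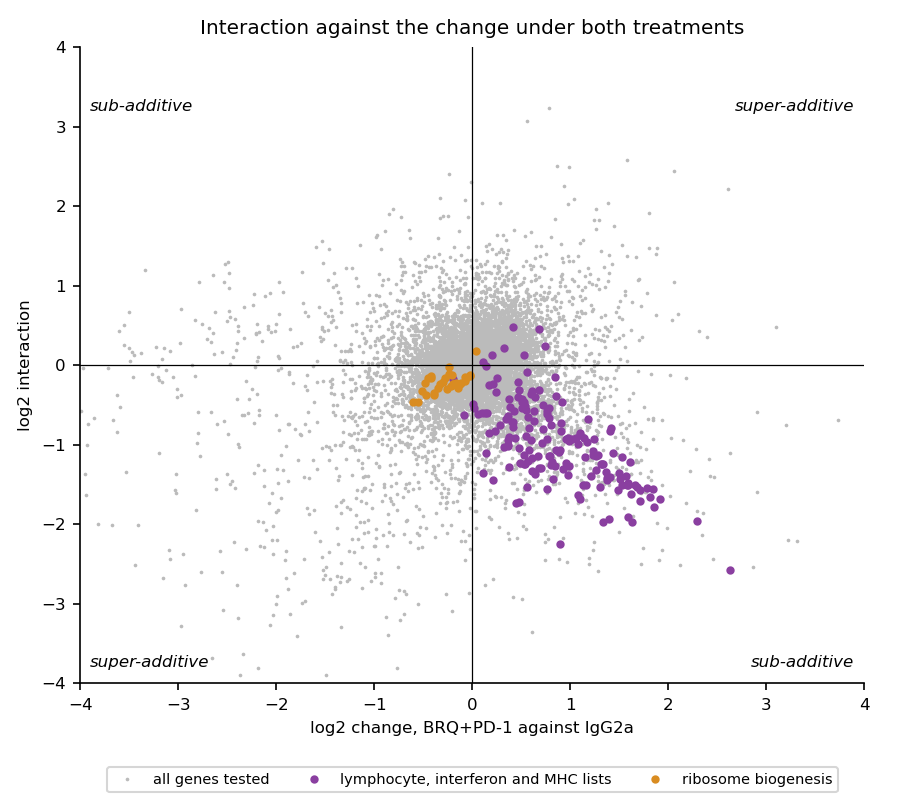
Log2 interaction (y axis) against the log2 change of BRQ+PD-1 against IgG2a (x axis) for all genes tested within the axes (grey), the genes of the 8 lymphocyte, interferon and MHC lists (purple) and ribosome biogenesis (orange), with the class of each quadrant named. Most purple points fall in the lower right, sub-additive quadrant, and most orange points in the lower left, super-additive quadrant.

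Myeloid and stromal lists differed from one another: dendritic cell and neutrophil genes were mostly negative, mast cell and endothelial genes mostly positive. Of 23 macrophage genes 15 had a negative interaction, with a median of -0.20 (in the BRQ+IgG2a group, leaving out replicate 1 gave -0.08 and leaving out replicate 5 gave -0.33), and those with the smallest p were genes that interferon also raises: Fcgr4, an activating Fc receptor, at -1.30 ± 0.55, and Cd86, a costimulatory ligand, at -0.46 ± 0.20. Dendritic cell genes had a median of -0.76 with 13 of 16 negative, and of -0.46 without PD-1 replicate 6. Itgax, the integrin chain CD11c, stood at 21, 29.6 and 40.3 CPM with IgG2a, 39.8, 65.8 and 105 CPM with PD-1, 34.3, 84.8 and 93.7 CPM with BRQ+IgG2a and 58.5, 86.7 and 131 CPM with BRQ+PD-1. The BRQ+PD-1 group lay wholly above IgG2a, by 1.59 ± 0.27 (adjusted p = 0.00217), and the interaction was -0.96 ± 0.37. Batf3, a transcription factor of cross-presenting dendritic cells, had -1.75 ± 0.71.

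Neutrophil genes had a median of -1.05, which was negative in all 24 fits that left out 1 tumour, from -1.51 to -0.71, and was -0.92 without PD-1 replicate 6. All 6 BRQ+PD-1 tumours lay under the additive expectation of the neutrophil score, and its highest PD-1 value was in replicate 2. B and plasma cell genes had a median of -1.03, which turned to 0.36 without PD-1 replicate 6, a muscle-rich tumour. That tumour was high in single genes of both lists. Csf3r, the receptor for granulocyte colony-stimulating factor, stood at 31.6 CPM there and at 10.9 to 14.2 CPM in the other PD-1 tumours, with an interaction of -1.05 ± 0.33 (-0.71 without it). Cxcl5, a neutrophil-attracting chemokine, stood at 13.5 CPM there and at most 0.687 CPM in the others, with -3.89 ± 1.59 (-1.46 without it). Ighm, the immunoglobulin M heavy chain, stood at 120.3 CPM there and at most 16.5 CPM in the others, with -2.43 ± 0.95 (-1.10 without it).

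Mast cell genes had the highest median of the 34 lists, 0.85, with 9 of 10 positive. Single tumours moved it, to 0.56 without IgG2a replicate 6 and 1.46 without PD-1 replicate 6. Tpsab1, a mast cell tryptase with a similar neighbour, stood at 0.887, 1.32 and 2.90 CPM with IgG2a, 0.464, 1.0 and 1.67 CPM with PD-1, 0.529, 1.59 and 5.23 CPM with BRQ+IgG2a and 1.4, 3.71 and 6.90 CPM with BRQ+PD-1. The BRQ+PD-1 range overlapped that of every other group. Brequinar raised it with anti-PD-1 (1.83 ± 0.49, adjusted p = 0.0321), the change with IgG2a was 0.30 ± 0.48, and the interaction was 1.53 ± 0.68. Tpsb2, the neighbouring tryptase, had an interaction of 1.19 ± 0.61. The mast cell score of BRQ+PD-1 was 2.70 ± 0.84 (SD, n = 6), against an additive expectation of 1.94, with 5 of 6 tumours above it.

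Endothelial genes were positive in 12 of 14, with a median of 0.27 that was 0.07 without IgG2a replicate 3 and 0.47 without PD-1 replicate 6, among them Eng, a coreceptor of TGF-beta family ligands, at 0.30 ± 0.11. Fibroblast genes split, with 9 of 14 negative: Postn, a matrix protein, had -1.88 ± 0.76 (-1.25 without PD-1 replicate 6), and Pdgfrb, a growth factor receptor of fibroblasts and pericytes, 0.58 ± 0.22. Nes, an intermediate filament gene of neural crest and stem-like cells, stood at 386, 434 and 547 CPM with IgG2a, 355, 405 and 452 CPM with PD-1, 324, 361 and 780.2 CPM with BRQ+IgG2a and 456, 620.3 and 775 CPM with BRQ+PD-1. The BRQ+PD-1 group lay wholly above the PD-1 group (0.61 ± 0.17, adjusted p = 0.0405), and the interaction was 0.71 ± 0.24. Nes had the highest interaction of the neural crest and undifferentiated melanoma list, where 8 of 12 genes were negative, with a median of -0.19.

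Genes of the pathway that brequinar targets had small interaction estimates. Dhodh, the gene of the inhibited enzyme, stood at 12, 13.4 and 17.4 CPM with IgG2a, 11.3, 13.0 and 14.1 CPM with PD-1, 11.0, 12.6 and 14.3 CPM with BRQ+IgG2a and 8.49, 12.8 and 14.5 CPM with BRQ+PD-1. Its interaction was 0.09 ± 0.16, with a 95% interval from -0.24 to 0.41. The drug acts on the enzyme, so the transcript does not check the treatment. Cad, which encodes the enzyme of the first steps, had an interaction of -0.19 ± 0.15 (95% interval from -0.51 to 0.13), and Umps, which makes UMP, one of -0.11 ± 0.17 (from -0.46 to 0.23). Of the 9 de novo pyrimidine genes 5 were negative, with a median of -0.11 and none at an unadjusted p under 0.05, and the median was 0.04 without BRQ+IgG2a replicate 5.

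Of 24 genes for pyrimidine salvage and nucleotide turnover 16 were negative, with a median of -0.13. Samhd1, a deoxynucleotide hydrolase that interferon also raises, had the largest departure by p, at -0.78 ± 0.31. The 27 genes of CDP-choline and phospholipid synthesis had a median of 0.05, with 17 positive. Chka, the first enzyme of the CDP-choline pathway, stood at 40.6, 44.3 and 57.3 CPM with IgG2a, 45.7, 54.1 and 59.5 CPM with PD-1, 35.4, 41.1 and 65.8 CPM with BRQ+IgG2a and 38.1, 41.4 and 45.0 CPM with BRQ+PD-1. The BRQ+PD-1 group lay wholly below the PD-1 group, and the interaction was -0.28 ± 0.17 (95% interval from -0.64 to 0.07). Pcyt1a, the rate-limiting enzyme of that pathway, had 0.22 ± 0.17. Pld2, which releases choline from phosphatidylcholine, had -0.30 ± 0.11, and Lpcat3, which remodels phosphatidylcholine, -0.32 ± 0.15. Ptgs2, the inducible cyclooxygenase, ran from 17.9 to 966 CPM within the BRQ+IgG2a group alone, and its interaction of 0.48 ± 1.2 was within its error.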

How the data were processed

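RNA from 24 D4M tumours was sequenced in bulk. The deposited table held raw read counts per gene, per the file headers, and columns were matched to samples by name. The build was GRCm39 and the tools named were HISAT2 2.2.1, StringTie 2.2.1, Trim Galore 0.6.7, MultiQC 1.11 and FastQC 0.11.8, per the submitters' processing notes. Which program made the counts, with what annotation and strand setting, is not given in the sources. The deposited FPKM and TPM tables were not used, because they held only part of the genes.

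Counts were filtered by expression within groups, scaled by TMM and fitted over all 24 libraries with edgeR 4.0.16 (robust quasi-likelihood, R 4.3.3) with 1 mean per group, which left 20 residual degrees of freedom. All p-values were adjusted over all 16029 genes by the Benjamini-Hochberg method. CPM are counts divided by TMM-scaled library sizes. The SE is the log2 estimate divided by the square root of F. Over all genes together, the tumours of a group differed by more than counting error in all 60 pairs, and the share of each in the error at a given level was not separated. DESeq2 1.42.0, limma 3.58.1 and the other alternatives appear in the closing section.

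The comparison, gene lists and tests were chosen with earlier results of these data known. Named genes were the 8 sub-additive and 8 super-additive genes with the smallest p (log2 interaction of at least 1 in size, mean of at least 1 CPM, no predicted genes) and the 4 largest each way. Added to these were a set of genes listed by name, in part from earlier results of these data, and the 2 members of each list with the smallest p. Of the 104 genes this rule names, the text gives a part (1 of the largest is not reported here), and Ifi47, Tgtp1, Rnf31 and Psmb9 appear only as overlapping or similar genes. List members share genes and vary together, so lists are described by counts and medians with no set test.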

Additional observations from a re-analysis of the deposited data

Results flagged for a closer look

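Within-group values of the 72 named genes were screened for a tumour standing apart from the other 5 of its group (gap to the nearest value over the whole range above Dixon's 95% critical value, on log2 of CPM plus 0.1). Of 288 groups 20 met this, where chance gives about 1 in 20. PD-1 replicate 6, a muscle-rich tumour, accounted for 5 of them: Adamtsl2 at 2.77 CPM (others at most 1.01), Cxcl13 at 12.6 CPM, Csf3r at 31.6 CPM, Cxcl5 at 13.5 CPM and Ighm at 120.3 CPM.

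BRQ+IgG2a replicate 5 accounted for 4: it was low for Cd4 at 5.43 CPM (others at least 11.6), Eomes at 0.914 CPM and Ighm at 4.77 CPM, and high for Nes at 780.2 CPM (others at most 392). IgG2a replicate 2 was low for Cad at 78.6 CPM and high for Stat2 at 63.3 CPM (others at most 45.7).

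In the remaining cases IgG2a replicate 1 stood at 3.24 CPM for Slc2a13 and 17.4 CPM for Dhodh, IgG2a replicate 4 at 0.356 CPM for Eomes, PD-1 replicate 5 at 11.7 CPM for Greb1l, and BRQ+IgG2a replicate 4 at 26.8 CPM for the muscle gene Myom3. BRQ+PD-1 replicate 5 stood at 30.6 CPM for Fst and 0.308 CPM for Myom3, and BRQ+PD-1 replicate 1 at 8.49 CPM for Dhodh and 267.9 CPM for Pdgfrb.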

How the results depend on the processing

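The interaction calls depended on the tool: 0 by edgeR, 11 by DESeq2 and 272 by limma voom, 1 without the 4 muscle-rich libraries, and 0 to 1 over the fits that left out 1 library each. The count of sub-additive genes by size and spread was 254 as reported, 711 with no expression filter, 452 by voom and 396 with a size threshold of 0.58, and 167 to 386 over the fits that left out 1 library. The count of super-additive genes by size and spread was 194 as reported, and 1076, 379 and 317 in those settings, 123 without the muscle-rich libraries, and 130 to 342 over the fits that left out 1 library. The share sub-additive among genes called in BRQ+PD-1 against IgG2a was 47.0% as reported, 72.8% without the muscle-rich libraries, and 31.4% to 60.8% over the fits that left out 1 library. As reported, the same share over all genes tested was 41.8%. The settings that drop muscle-rich libraries or use a muscle score were chosen after seeing the data. With the linear CPM scale 253 and 195 genes fell in the sub-additive and super-additive classes.

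With the replicate number as a block, 0 genes were called and 128 were super-additive. The labels do not say whether the numbers pair the tumours. Same-numbered tumours correlated at -0.64 to 0.44 over 36 pairs (median -0.004), and different-numbered ones at -0.71 to 0.81 over 180 pairs (median 0.05). Of the 24 tumours, 1 correlated best with its own number. These values show no pairing by number but cannot exclude one.

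Some of the named genes, by log2 interaction, turned direction, all within their error. Acta1 at -1.96 ± 3.26 gave 0.45 with the muscle covariate (a score that includes Acta1), -3.79 to 1.88 over the fits that left out 1 library (positive without PD-1 replicate 6, or without BRQ+IgG2a replicate 4 at 1.2), and 1779 CPM as a linear difference of differences. Ptgs2 gave -0.48 to 1.98 over the fits that left out 1 library, negative without BRQ+PD-1 replicate 1, Umps 0.00705 without the muscle-rich libraries and H2-M2 1.5 CPM on the linear scale. In the 8 lymphocyte, interferon and MHC lists every gene called higher for the mean brequinar change had a negative interaction in each setting fitted, except 105 of 106 without BRQ+IgG2a replicate 5. These settings reuse the same tumours for the call and for the interaction. The median SE was 0.63 under 1 CPM and 0.15 above 100 CPM.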

Other observations

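Other gene groups were mixed. Cholesterol and fatty acid synthesis had a median interaction of -0.02 over 22 genes, nuclear oxidative phosphorylation 0.01 over 25, hypoxia and glycolysis -0.09 over 22, and prostaglandins and leukotrienes -0.12 over 20, with 1 of these genes at an unadjusted p under 0.05, in the last list. Adipocyte genes had a median of -2.07 over 8 genes, which was -0.44 without PD-1 replicate 6, and keratinocyte genes -0.50 over 6 genes, which was -0.18 without it. Erythroid genes had -1.30 over 5 genes, all negative, with -0.80 without that tumour, and all 6 BRQ+PD-1 tumours lay under the additive expectation of the list score. Cytokines and chemokines had -0.36 over 25 genes, with 21 negative, from -0.50 to -0.26 over the fits that left out 1 tumour, and again all 6 tumours lay under the expectation. Melanocytic genes had a median of 0.06 over 3 genes, which was 0.61 without BRQ+IgG2a replicate 5 and -0.13 without IgG2a replicate 6, and neural crest and undifferentiated melanoma genes -0.19 over 12.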
